A study of Homo sapiens with 12 samples.

Results

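Heat shock proteins and cytosolic chaperones were followed as a set of 46 genes, listed by symbol and each matched to 1 identifier of the 60671 in the gene count table. They comprised 7 genes of the HSP70 family, 3 of the HSP110 family, 5 small heat shock proteins, HSP90 with its cochaperones (6 genes), 7 J-domain proteins, 3 BAG nucleotide exchange factors, the transcription factors HSF1 and HSF2, and the 8 subunits of the CCT chaperonin. A further 5 listed genes, HSPA9, HSPD1, HSPE1, TRAP1 and DNAJA3, encode mitochondrial proteins, and HSPA13 encodes a microsomal one, so the set is not wholly cytosolic. In all, 45 of the 46 passed the count filter and were tested, and HSPB7 did not, with 0 to 4 counts in a library.

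The cells were BJ-5ta, a human fibroblast line immortalised with hTERT, as wild type and as ΔLEO1 clone 13, in which CRISPR cutting at exons 1 and 2 removed LEO1, a subunit of the PAF1 complex of transcribing RNA polymerase II. Each genotype was grown in RPMI medium with 10% serum or kept in 0.1% serum for 10 days to bring about quiescence, giving 4 groups. Poly(A) RNA was sequenced in 3 libraries of each group, numbered 1 to 12 over the series. ΔLEO1 is 1 clone, so what differs from one clone to another is not covered, and nothing states whether the 3 libraries of a group came from separate cultures, so p-values measure the spread between these libraries. The 4 groups thus ask how chaperone transcripts respond to serum withdrawal in each genotype, and how the genotypes differ in each serum.

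Chaperones bind unfolded or partly folded proteins and keep them from aggregating. HSP70 takes up extended stretches with the help of J-domain proteins, which trigger its ATPase, and of nucleotide exchange factors of the BAG and HSP110 families, which let the client go, while HSP90 acts later on kinases and hormone receptors and CCT encloses actin and tubulin. HSF1 switches many of these genes on after heat or other stress by binding heat shock elements, inverted repeats of GAA, whereas the small heat shock proteins hold misfolded proteins without ATP and bind the actin cytoskeleton in muscle and fibroblasts.

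Promoter sequences are shown for the members whose window around the start site holds an exact match to the 3-unit heat shock element. HSF1 binding was not measured, and members without such a match may still be bound. The 250 bases before and 50 after the start site were searched in RefSeq windows on GRCh38.p14 on both strands for GAANNTTC followed by NN and a further GAA, or TTCNNGAA followed by NN and a further TTC, which are reverse complements of each other. Windows were given for 42 members and not for CRYAB, HSF1, HSPA14 and CCT6A. The motif stood in 6 of the 42 members, or 14.3%, against 0.608% of the 27305 genes with a window. Capitals mark the motif in each line, with 8 bases or fewer of flank on each side, 5′ to 3′ on the gene's strand.

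DNAJA1 (chr9:33025268-33025296, plus strand): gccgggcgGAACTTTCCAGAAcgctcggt
DNAJB6 (chr7:157336865-157336893, plus strand): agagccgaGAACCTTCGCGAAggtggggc
HSP90AA1 (chr14:102087112-102087140, minus strand): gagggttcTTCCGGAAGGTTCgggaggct
HSP90AB1 (chr6:44247770-44247798, plus strand): ggagcaggTTCTGGAAGATTCatgggctc
HSP90AB1 (chr6:44247823-44247851, plus strand): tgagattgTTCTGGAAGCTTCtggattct
HSPA8 (chr11:123062171-123062199, minus strand): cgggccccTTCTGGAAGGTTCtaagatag
HSPA8 (chr11:123062346-123062374, minus strand): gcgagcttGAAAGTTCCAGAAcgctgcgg
HSPD1 (chr2:197500060-197500090, minus strand): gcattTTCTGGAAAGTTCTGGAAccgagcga

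HSP90AB1 and HSPA8, the constitutive HSP90 and HSP70 of the cytosol, each held 2 separate matches, and in HSPD1 a pair of overlapping matches formed 1 run of 4 alternating units. The DNAJA1 match alone lay after the start site. A looser 2-unit form, GAANNTTC or TTCNNGAA, which overlaps every 3-unit match, stood in 20 of the 42 members, or 47.6%, against 16.2% of all genes with a window. It was found for instance in the stress-inducible HSPA1A and in HSPB6, the member that differed most between the genotypes, and the exon-free upstream stretch of each is shown with the 2-unit matches in capitals.

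HSPA1A (chr6:31815293-31815463, plus strand): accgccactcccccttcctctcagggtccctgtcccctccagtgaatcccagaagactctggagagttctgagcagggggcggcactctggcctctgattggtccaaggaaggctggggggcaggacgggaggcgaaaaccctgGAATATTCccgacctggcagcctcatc
HSPB6 (chr19:35757034-35757279, minus strand): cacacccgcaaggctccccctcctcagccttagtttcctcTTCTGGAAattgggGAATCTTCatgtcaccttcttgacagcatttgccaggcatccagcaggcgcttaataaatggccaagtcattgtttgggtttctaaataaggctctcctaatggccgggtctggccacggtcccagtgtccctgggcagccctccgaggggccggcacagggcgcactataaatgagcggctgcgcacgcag

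The libraries held 26240632 to 45315560 gene counts and 0.625% to 3.24% ERCC counts, ERCC transcripts being synthetic RNAs added to every sample. Levels are given as counts per 1000 effective ERCC counts unless CPM, gene counts scaled to the same total in every library, is named. The ERCC scale follows how much of a transcript there was for each added ERCC molecule. CPM, and TMM on the genes, which sets the bulk of the genes equal between libraries, follow its share among the genes. A gene was called where its p adjusted over all 13236 tested genes was under 0.05, and in bulk samples fewer cells and less RNA per cell cannot be told apart. Libraries 3, 6, 9 and 12, the highest number in each group, stood apart from the other 2 of their group, with a chi-square per gene of 59.6 to 129 against 2.87 to 11.1 between the others. LEO1 itself held 2.94, 2.51 and 1.62 in wild type in 10% serum and 1.39, 1.84 and 0.759 in 0.1% serum. The ΔLEO1 libraries held 0.216, 0.0926 and 0.131 in 10% serum and 0.0348, 0.0433 and 0.126 in 0.1% serum, and the ΔLEO1 libraries lay below all wild-type libraries, with log2 fold changes of -4.02 ± 0.49 (adjusted p = 2.16e-11) in 10% serum and -4.32 ± 0.50 (adjusted p = 1.43e-12) in 0.1% serum (± SE, n = 3 for each group, edgeR likelihood ratio test). Summed over 9 genes, fibroblast markers reached 68514 to 99549 CPM in a library and were high in every group. Proliferation markers, summed over 6 genes, held 149 to 558 CPM in wild type in 10% serum and 196 to 360 in 0.1% serum. In ΔLEO1 they held 370 to 706 and 321 to 508, so the sera overlapped in both genotypes. MKI67 was at 47.0 CPM in library 3 in 10% serum, below the 54.8 to 86.0 of wild type in 0.1% serum. It was at 137 CPM in library 12 in 0.1% serum, above the 106 of library 6 in 10% serum.

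Levels of different members can be compared only per length of their merged exons. In wild type in 10% serum the highest was HSPB1 at 317 ± 37.2 CPM per kilobase (SD, n = 3), followed by HSP90AB1 at 255 ± 13.9, HSPA8 at 195 ± 6.73 and HSP90AA1 at 116 ± 5.80. These 4 genes took the first 4 places in every group, with HSPA8 in the third place and HSP90AA1 in the fourth throughout and HSPB1 and HSP90AB1 changing places above them. PTGES3, the HSP90 cochaperone p23, came next at 58.6 ± 2.43 and did not differ beyond its spread from DNAJA1 at 51.0 ± 6.33.

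Of the 45 tested members, the 2 with the largest genotype differences on the ERCC scale were small heat shock proteins. HSPB6, also called HSP20, an actin-associated small heat shock protein, held 1.77, 1.504 and 0.939 in wild type in 10% serum and 0.905, 1.26 and 0.875 in 0.1% serum. In ΔLEO1 HSPB6 held 0.171, 0.123 and 0.109 in 10% serum and 0.0924, 0.0479 and 0.162 in 0.1% serum. Every ΔLEO1 library lay far below every wild-type library in both sera. The counts behind these values were 511, 561 and 530 in wild type and 42, 48 and 46 in ΔLEO1 in 10% serum, so neither group was near 0. HSPB6 was 10.5-fold lower in ΔLEO1 in 10% serum, a log2 fold change of -3.39 ± 0.50 (adjusted p = 2.85e-08), and 10.2-fold lower in 0.1% serum, a log2 fold change of -3.35 ± 0.50 (adjusted p = 4.30e-08). Both calls stood in each of the 12 fits that left out 1 library.

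CRYAB, alpha B-crystallin, a small heat shock protein that binds desmin and other filaments, held 2.002, 1.61 and 1.73 in wild type in 10% serum and 0.236, 0.347 and 0.482 in 0.1% serum. In ΔLEO1 CRYAB held 0.326, 0.195 and 0.482 in 10% serum and 0.0454, 0.0267 and 0.0797 in 0.1% serum. Its levels fell in steps, with wild type in 10% serum highest, ΔLEO1 in 0.1% serum lowest, and the other groups overlapping between them. CRYAB was 5.31-fold lower in ΔLEO1 than in wild type in 10% serum (-2.41 ± 0.50, adjusted p = 9.72e-05) and 7.20-fold lower in 0.1% serum (-2.85 ± 0.51, adjusted p = 6.80e-06), given here as log2 fold changes. It also fell with serum withdrawal in both genotypes, with log2 fold changes of -2.32 ± 0.49 (adjusted p = 1.90e-04) in wild type and -2.76 ± 0.52 (adjusted p = 2.60e-05) in ΔLEO1. All 4 calls held in each of the 12 fits that left out 1 library. The highest-numbered library of each group had the most raw CRYAB counts, 975 against 579 and 601 in wild type in 10% serum, 433 against 170 and 151 in wild type in 0.1% serum, 203 against 80 and 76 in ΔLEO1 in 10% serum and 31 against 30 and 29 in ΔLEO1 in 0.1% serum. In CPM this held in the other groups but not in ΔLEO1 in 0.1% serum, at 0.863, 0.891 and 0.878 CPM. On the ERCC scale library 3, at 1.73, lay below library 1, at 2.002. Without libraries 3, 6, 9 and 12 the genotype log2 fold changes were -2.81 ± 0.37 (adjusted p = 3.85e-11) and -3.03 ± 0.41 (adjusted p = 2.24e-11).

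HSPB1, also called HSP27, which caps actin filaments, held 60.5, 51.0 and 40.8 in wild type in 10% serum and 13.2, 18.9 and 14.1 in 0.1% serum. In ΔLEO1 HSPB1 held 101, 70.3 and 75.3 in 10% serum and 33.2, 20.01 and 56.4 in 0.1% serum. The libraries in 0.1% serum lay below those in 10% serum in both genotypes, and the ΔLEO1 libraries lay above the wild-type libraries in each serum. On the ERCC scale the genotype difference did not pass the test, at 0.70 ± 0.44 (adjusted p = 0.442) in 10% serum and 1.25 ± 0.44 (adjusted p = 0.0659) in 0.1% serum. In CPM, HSPB1 held 479.5, 485 and 587 in wild type in 10% serum and 281, 313 and 378 in 0.1% serum. In ΔLEO1 HSPB1 held 639, 603 and 715 in 10% serum and 631, 668 and 621 in 0.1% serum, so its share of the gene counts dropped with serum withdrawal in wild type and overlapped between the sera in ΔLEO1. With TMM on the genes it fell in wild type, with a log2 fold change of -0.76 ± 0.15 (adjusted p = 5.35e-06), while in ΔLEO1 the log2 fold change was -0.09 ± 0.15 (adjusted p = 0.702).

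HSPB8, the partner of BAG3 in clearing misfolded proteins, held 1.62, 1.42 and 0.923 in wild type in 10% serum and 0.409, 0.623 and 0.679 in 0.1% serum. In ΔLEO1 HSPB8 held 1.34, 1.15 and 1.08 in 10% serum and 0.430, 0.266 and 0.876 in 0.1% serum, and its groups overlapped between the genotypes in both sera. It fell with serum withdrawal on the ERCC scale, with log2 fold changes of -1.21 ± 0.48 (adjusted p = 0.0423) and -1.19 ± 0.48 (adjusted p = 0.0391) in wild type and ΔLEO1, but with TMM on the genes these were -0.17 ± 0.24 (adjusted p = 0.617) and -0.16 ± 0.24 (adjusted p = 0.653). Both HSPB8 calls were lost with the quasi-likelihood test, and each was lost in 6 of the 12 fits that left out 1 library. HSPB7, a small heat shock protein of heart muscle, was near absent, with 1 to 4 counts in wild type in 10% serum, 0 or 1 in ΔLEO1 in 10% serum and 0 in all 6 libraries in 0.1% serum.

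**Figure D1:**
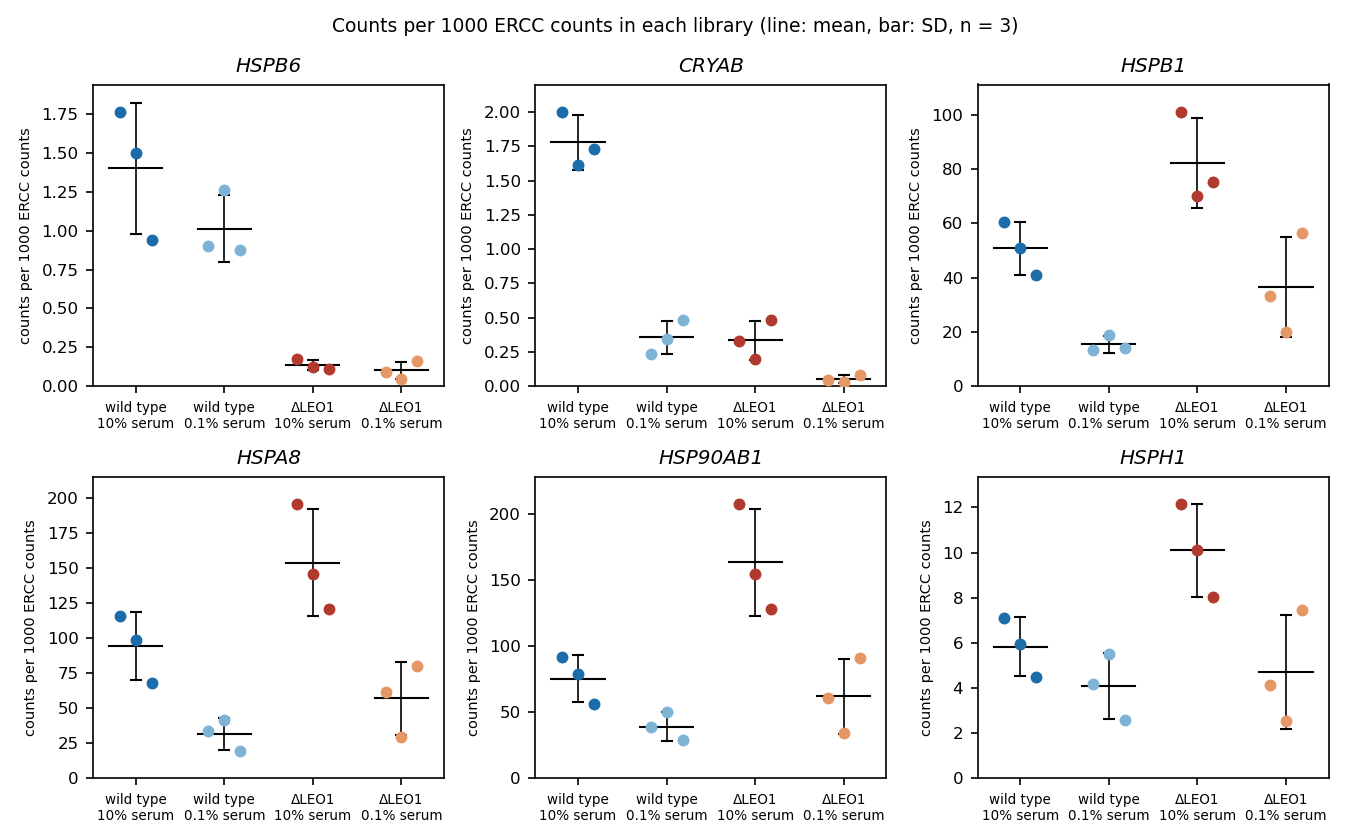
Counts per 1000 ERCC counts of 6 members in each of the 12 libraries (points), with the mean (line) and SD (bar, n = 3) of each group, on linear axes from 0. HSPB6 lies between 0.0479 and 0.171 in the ΔLEO1 libraries and between 0.875 and 1.77 in wild type, and CRYAB is lowest in ΔLEO1 in 0.1% serum, whereas HSPB1, HSPA8, HSP90AB1 and HSPH1 are highest in ΔLEO1 in 10% serum.

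HSPB6 (chr19:35754569-35758079, minus strand, GRCh38 with GENCODE 29) and CRYAB (chr11:111908565-111923722, minus strand) both overlap genes on the opposite strand, which cover 38.2% and 20.6% of their exon bases, and the strand setting of the counting is not given in the sources used here. Opposite-strand genes also cover 44.2% of the exon bases of BAG2, 30.1% in CCT5 and 29.3% in TRAP1, where the same limit holds. AC002398.2, opposite to HSPB6, had 0 to 5 counts in a library, and HSPB2, opposite to CRYAB, likewise had 0 to 5. The genes next to both were looked at after their values had been seen. The 10 tested genes nearest to HSPB6, 5 on each side, had genotype log2 fold changes of -0.07 to 0.69 in 10% serum and -0.53 to 0.85 in 0.1% serum, with adjusted p from 0.453 to 0.999. Beside CRYAB, the neighbouring gene DIXDC1 was called lower in ΔLEO1 in 10% serum, with a log2 fold change of -1.35 (adjusted p = 0.0469), and not in 0.1% serum, with -1.15 (adjusted p = 0.144), and the other 9 neighbours ran from -0.38 to 1.18. With TMM on the genes DIXDC1 was called lower in both sera, at -1.59 (adjusted p = 2.15e-09) and -1.42 (adjusted p = 1.25e-07). On that scale 3 of the 10 neighbours of CRYAB were lower and 3 higher in 10% serum and 2 lower and 1 higher in 0.1% serum, and of the 10 neighbours of HSPB6 1 was lower and 1 higher in 10% serum and 2 were lower in 0.1% serum.

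Compared over all members, ΔLEO1 in 10% serum had 2 of 45 called lower than wild type, HSPB6 and CRYAB, where 4.64% of all 13236 tested genes were lower. No member was called higher on the ERCC scale by edgeR's likelihood ratio test (0 of 45, with 4.2% of all genes higher). At an unadjusted p under 0.05, 9 were higher, as were 10.2% of all genes. The quasi-likelihood test also gave 0 (3.81% of all genes), and DESeq2 gave 1, HSPA1B (4.38%). The members' median log2 fold change was 0.70 against 0.35 over all genes, and 27 of 45 lay higher in every ΔLEO1 library than in every wild-type library, as did 23.7% of all genes. The spread of ERCC counts within groups gave the members' ERCC-scaled log2 fold changes here an SE of 0.44 to 0.51.

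With TMM on the genes, which centres all genes near 0 (median 0.00), 22 members were called higher and 4 lower in ΔLEO1 in 10% serum, where 17.7% of all genes were higher and 21.8% lower. The members' median was 0.34. These counts describe shares among the transcripts and are read here beside the ERCC values. In 0.1% serum 20 members were higher and 3 lower with TMM on the genes, where 15.4% of all genes were higher and 17.6% lower, while on the ERCC scale again HSPB6 and CRYAB alone were lower (2 of 45, 3.59% of all genes). On that scale 0 of 45 were called higher (3.85% of all genes), 2 at an unadjusted p under 0.05 (8.7%), none by the quasi-likelihood test (3.49%) and 1, HSPB1, by DESeq2 (3.69%).

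HSP90 and its cochaperones were the class in which every tested member was higher in share in ΔLEO1 in 10% serum, 6 of 6. Over all genes this share was 17.7% with TMM on the genes. HSP90AB1, the constitutive HSP90, held 91.3, 78.9 and 55.9 in wild type in 10% serum and 38.6, 50.2 and 28.6 in 0.1% serum. In ΔLEO1 HSP90AB1 held 207, 155 and 128 in 10% serum and 61.0, 34.0 and 91.0 in 0.1% serum, and ΔLEO1 lay above wild type in every library in 10% serum but not in 0.1% serum. Its log2 fold changes between the genotypes were 1.11 ± 0.44 (adjusted p = 0.108) and 0.66 ± 0.44 (adjusted p = 0.600) on the ERCC scale and 0.75 ± 0.12 (adjusted p = 5.90e-09) and 0.46 ± 0.12 (adjusted p = 6.55e-04) with TMM on the genes, in 10% and 0.1% serum. HSP90AA1, the inducible HSP90, held 77.4, 66.8 and 40.0 in wild type in 10% serum and 26.4, 33.3 and 18.6 in 0.1% serum. In ΔLEO1 HSP90AA1 held 121, 93.3 and 80.0 in 10% serum and 42.5, 23.3 and 63.9 in 0.1% serum, again without overlap in 10% serum and with overlap in 0.1% serum. With TMM it was higher by 0.34 ± 0.12 (adjusted p = 0.0125) and 0.52 ± 0.12 (adjusted p = 6.95e-05). STIP1, which hands clients from HSP70 to HSP90, held 11.9, 10.3 and 8.12 in wild type in 10% serum and 4.61, 6.14 and 3.28 in 0.1% serum. In ΔLEO1 STIP1 held 22.9, 17.8 and 14.6 in 10% serum and 6.45, 3.91 and 10.1 in 0.1% serum, and its TMM log2 fold changes were 0.49 ± 0.13 (adjusted p = 7.08e-04) and 0.36 ± 0.13 (adjusted p = 0.0200). The kinase-loading cochaperone CDC37, the ATPase activator AHSA1 and PTGES3 ran from 0.34 to 0.38 in 10% serum on the TMM scale, and in 0.1% serum CDC37 and AHSA1 were called and PTGES3, at 0.24 ± 0.12 (adjusted p = 0.103), was not.

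Of the CCT chaperonin, 7 of 8 subunits were higher in share in ΔLEO1 in 10% serum and 4 of 8 in 0.1% serum. Over all genes 17.7% and 15.4% were higher. TCP1, the alpha subunit, held 14.4, 12.4 and 8.68 in wild type in 10% serum and 6.10, 8.02 and 4.81 in 0.1% serum. In ΔLEO1 TCP1 held 27.2, 20.8 and 18.2 in 10% serum and 8.60, 5.17 and 13.05 in 0.1% serum. All ΔLEO1 libraries in 10% serum lay above all of wild type, and the libraries in 0.1% serum overlapped. TCP1 had TMM log2 fold changes of 0.54 ± 0.12 (adjusted p = 1.87e-05) and 0.31 ± 0.12 (adjusted p = 0.0251). CCT8 held 15.7, 12.7 and 10.3 in wild type in 10% serum and 5.75, 7.81 and 4.38 in 0.1% serum. In ΔLEO1 CCT8 held 29.8, 22.4 and 22.7 in 10% serum and 8.55, 4.96 and 11.7 in 0.1% serum, again above wild type in 10% serum alone, with TMM log2 fold changes of 0.59 ± 0.15 (adjusted p = 3.19e-04) and 0.33 ± 0.15 (adjusted p = 0.0702). CCT2, CCT3, CCT4, CCT6A and CCT7 ran from 0.31 to 0.64 in 10% serum and from 0.22 to 0.48 in 0.1% serum, and CCT5 was the subunit not called in 10% serum, at 0.20 ± 0.10 (adjusted p = 0.105).

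Mitochondrial chaperones were partly higher in share, 3 of 5 in 10% serum (17.7% of all genes) and 2 of 5 in 0.1% serum (15.4%). HSPD1, the HSP60 chaperonin, held 15.7, 14.2 and 9.75 in wild type in 10% serum and 6.82, 9.20 and 4.98 in 0.1% serum. In ΔLEO1 HSPD1 held 38.6, 29.5 and 21.8 in 10% serum and 11.6, 6.65 and 15.98 in 0.1% serum. HSPE1, its HSP10 lid encoded beside it, held 1.77, 1.38 and 1.02 in wild type in 10% serum and 0.737, 1.12 and 0.575 in 0.1% serum. In ΔLEO1 HSPE1 held 3.47, 2.83 and 2.42 in 10% serum and 1.25, 0.783 and 1.45 in 0.1% serum. Both were higher in every ΔLEO1 library than in wild type in 10% serum. The TMM log2 fold changes were 0.80 ± 0.14 (adjusted p = 1.21e-07) for HSPD1 and 0.71 ± 0.19 (adjusted p = 6.84e-04) for HSPE1 in 10% serum, and 0.54 ± 0.14 (adjusted p = 7.81e-04) and 0.43 ± 0.19 (adjusted p = 0.0638) in 0.1% serum. TRAP1, the HSP90 of mitochondria, held 5.02, 4.06 and 3.05 in wild type in 10% serum and 1.76, 2.29 and 1.31 in 0.1% serum. In ΔLEO1 TRAP1 held 10.7, 7.998 and 5.71 in 10% serum and 2.83, 1.54 and 3.59 in 0.1% serum, with 0.63 ± 0.15 (adjusted p = 2.76e-04) and 0.41 ± 0.16 (adjusted p = 0.0302), whereas DNAJA3 and HSPA9 had values from -0.21 to 0.14 over both sera, none of them called.

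The HSP70 family was mixed. HSPA8, the constitutive HSC70, held 116, 98.6 and 68.2 in wild type in 10% serum and 34.0, 41.9 and 19.2 in 0.1% serum. In ΔLEO1 HSPA8 held 195, 145 and 120.3 in 10% serum and 61.4, 29.3 and 80.3 in 0.1% serum. The ΔLEO1 libraries lay above wild type in 10% serum and overlapped it in 0.1% serum. With TMM on the genes the log2 fold changes were 0.34 ± 0.16 (adjusted p = 0.0731) and 0.67 ± 0.16 (adjusted p = 2.18e-04), so HSPA8 passed the test in 0.1% serum. HSPA1A, one of the stress-inducible pair, held 2.64, 2.09 and 1.96 in wild type in 10% serum and 1.22, 1.54 and 1.31 in 0.1% serum. In ΔLEO1 HSPA1A held 4.37, 3.10 and 3.73 in 10% serum and 1.72, 1.04 and 2.66 in 0.1% serum. HSPA1B, the other, held 2.80, 2.30 and 1.99 in wild type in 10% serum and 1.08, 1.31 and 1.20 in 0.1% serum. In ΔLEO1 HSPA1B held 6.20, 4.71 and 4.28 in 10% serum and 2.17, 1.32 and 3.15 in 0.1% serum. The ΔLEO1 libraries of HSPA1B lay above wild type in each serum and those of HSPA1A in 10% serum only. They share 70.7% and 73.4% of their 58-base stretches with other genes, mainly each other, so reads could be split or lost between them and their separate values are uncertain. On the same strand, AL671762.1 also covers 36.5% of the exon bases of HSPA1B, while 0% of those of HSPA1A have such an overlap. HSPA1B was higher with TMM by 0.72 ± 0.18 (adjusted p = 4.55e-04) and 0.66 ± 0.18 (adjusted p = 0.00164), and HSPA1A had 0.36 ± 0.19 (adjusted p = 0.125) and 0.18 ± 0.19 (adjusted p = 0.532). HSPA13, the microsomal HSP70-like ATPase, was higher by 0.80 ± 0.12 (adjusted p = 5.95e-10) and 0.74 ± 0.12 (adjusted p = 2.67e-08), and HSPA12A, a distant relative, was lower, at -1.30 ± 0.22 (adjusted p = 8.26e-08) and -0.89 ± 0.22 (adjusted p = 3.89e-04), all with TMM on the genes. HSPA2, first known from testis, was not called at 0.46 ± 0.34 (adjusted p = 0.282) and 0.61 ± 0.34 (adjusted p = 0.163), and HSPA14, which works on the ribosome, had 0.15 ± 0.17 (adjusted p = 0.504) and -0.11 ± 0.17 (adjusted p = 0.675).

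Among the HSP110 exchange factors, HSPH1 held 7.08, 5.96 and 4.48 in wild type in 10% serum and 4.16, 5.50 and 2.59 in 0.1% serum. In ΔLEO1 HSPH1 held 12.1, 10.1 and 8.02 in 10% serum and 4.15, 2.54 and 7.48 in 0.1% serum. It was higher in share in ΔLEO1 in 10% serum (0.43 ± 0.13, adjusted p = 0.00327) but not in 0.1% serum (-0.00 ± 0.13, adjusted p = 0.993), where the libraries of the genotypes overlapped. HSPA4L held 0.767, 0.617 and 0.229 in wild type in 10% serum and 0.115, 0.106 and 0.145 in 0.1% serum. In ΔLEO1 HSPA4L held 0.440, 0.368 and 0.297 in 10% serum and 0.0515, 0.0488 and 0.203 in 0.1% serum, and was lower in share in 10% serum at -0.81 ± 0.34 (adjusted p = 0.0432). That call was lost with the quasi-likelihood test on the same scale. HSPA4 had 0.24 ± 0.13 (adjusted p = 0.117) and 0.16 ± 0.13 (adjusted p = 0.355).

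Among J-domain proteins 2 of 7 were higher in share in ΔLEO1 in 10% serum and 4 of 7 in 0.1% serum. Of all genes 17.7% and 15.4% were higher, and with 7 genes the 2 called in 10% serum are not read as a trait of the class. DNAJB1, or HSP40, a main partner of HSPA1A in the heat response, held 15.3, 12.2 and 8.56 in wild type in 10% serum and 7.32, 10.3 and 5.77 in 0.1% serum. In ΔLEO1 DNAJB1 held 25.2, 18.7 and 16.5 in 10% serum and 10.7, 6.14 and 15.9 in 0.1% serum, with TMM log2 fold changes of 0.39 ± 0.12 (adjusted p = 0.00286) and 0.30 ± 0.12 (adjusted p = 0.0336). DNAJA1 held 16.4, 13.5 and 11.1 in wild type in 10% serum and 10.6, 14.1 and 6.17 in 0.1% serum. In ΔLEO1 DNAJA1 held 30.3, 23.7 and 18.5 in 10% serum and 15.7, 9.08 and 17.9 in 0.1% serum, with 0.44 ± 0.20 (adjusted p = 0.0630) and 0.38 ± 0.20 (adjusted p = 0.134), neither of them called. DNAJB6, which curbs aggregation of polyglutamine proteins, held 11.6, 10.1 and 8.28 in wild type in 10% serum and 3.02, 3.63 and 2.60 in 0.1% serum. In ΔLEO1 DNAJB6 held 17.5, 12.9 and 12.4 in 10% serum and 4.65, 2.84 and 9.14 in 0.1% serum, and was higher in 0.1% serum alone (0.13 ± 0.13, adjusted p = 0.421, and 0.56 ± 0.13, adjusted p = 9.20e-05). DNAJB4 held 7.35, 5.50 and 3.45 in wild type in 10% serum and 1.29, 1.65 and 0.711 in 0.1% serum. In ΔLEO1 DNAJB4 held 10.5, 8.94 and 5.79 in 10% serum and 2.06, 1.27 and 2.67 in 0.1% serum, and was likewise called in 0.1% serum (0.61 ± 0.19, adjusted p = 0.00746) and not in 10% serum (0.29 ± 0.19, adjusted p = 0.221). DNAJB5 was called in both, at 0.37 ± 0.15 (adjusted p = 0.0414) and 0.52 ± 0.15 (adjusted p = 0.00384), and DNAJA2 and DNAJC7 in neither.

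None of the BAG exchange factors passed the likelihood ratio test between the genotypes on either scale. BAG3, which couples HSP70 to HSPB8 and to autophagy, held 14.2, 11.4 and 8.76 in wild type in 10% serum and 6.18, 8.53 and 4.55 in 0.1% serum. In ΔLEO1 BAG3 held 20.8, 14.3 and 14.1 in 10% serum and 7.90, 4.84 and 12.8 in 0.1% serum, with TMM log2 fold changes of 0.15 ± 0.12 (adjusted p = 0.320) and 0.22 ± 0.12 (adjusted p = 0.161), and BAG1 and BAG2 ran from -0.17 to 0.15. HSF1 held 8.07, 7.07 and 4.87 in wild type in 10% serum and 2.93, 3.92 and 2.34 in 0.1% serum. In ΔLEO1 HSF1 held 11.2, 8.41 and 7.55 in 10% serum and 4.21, 2.29 and 6.46 in 0.1% serum, and its share was higher in ΔLEO1 in 0.1% serum, at 0.28 ± 0.11 (adjusted p = 0.0349), with 0.08 ± 0.11 (adjusted p = 0.577) in 10% serum. HSF2, which works with HSF1 at the same elements, was called in 10% serum at 0.52 ± 0.15 (adjusted p = 0.00336) and not in 0.1% serum at 0.11 ± 0.16 (adjusted p = 0.628).

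**Figure D2:**
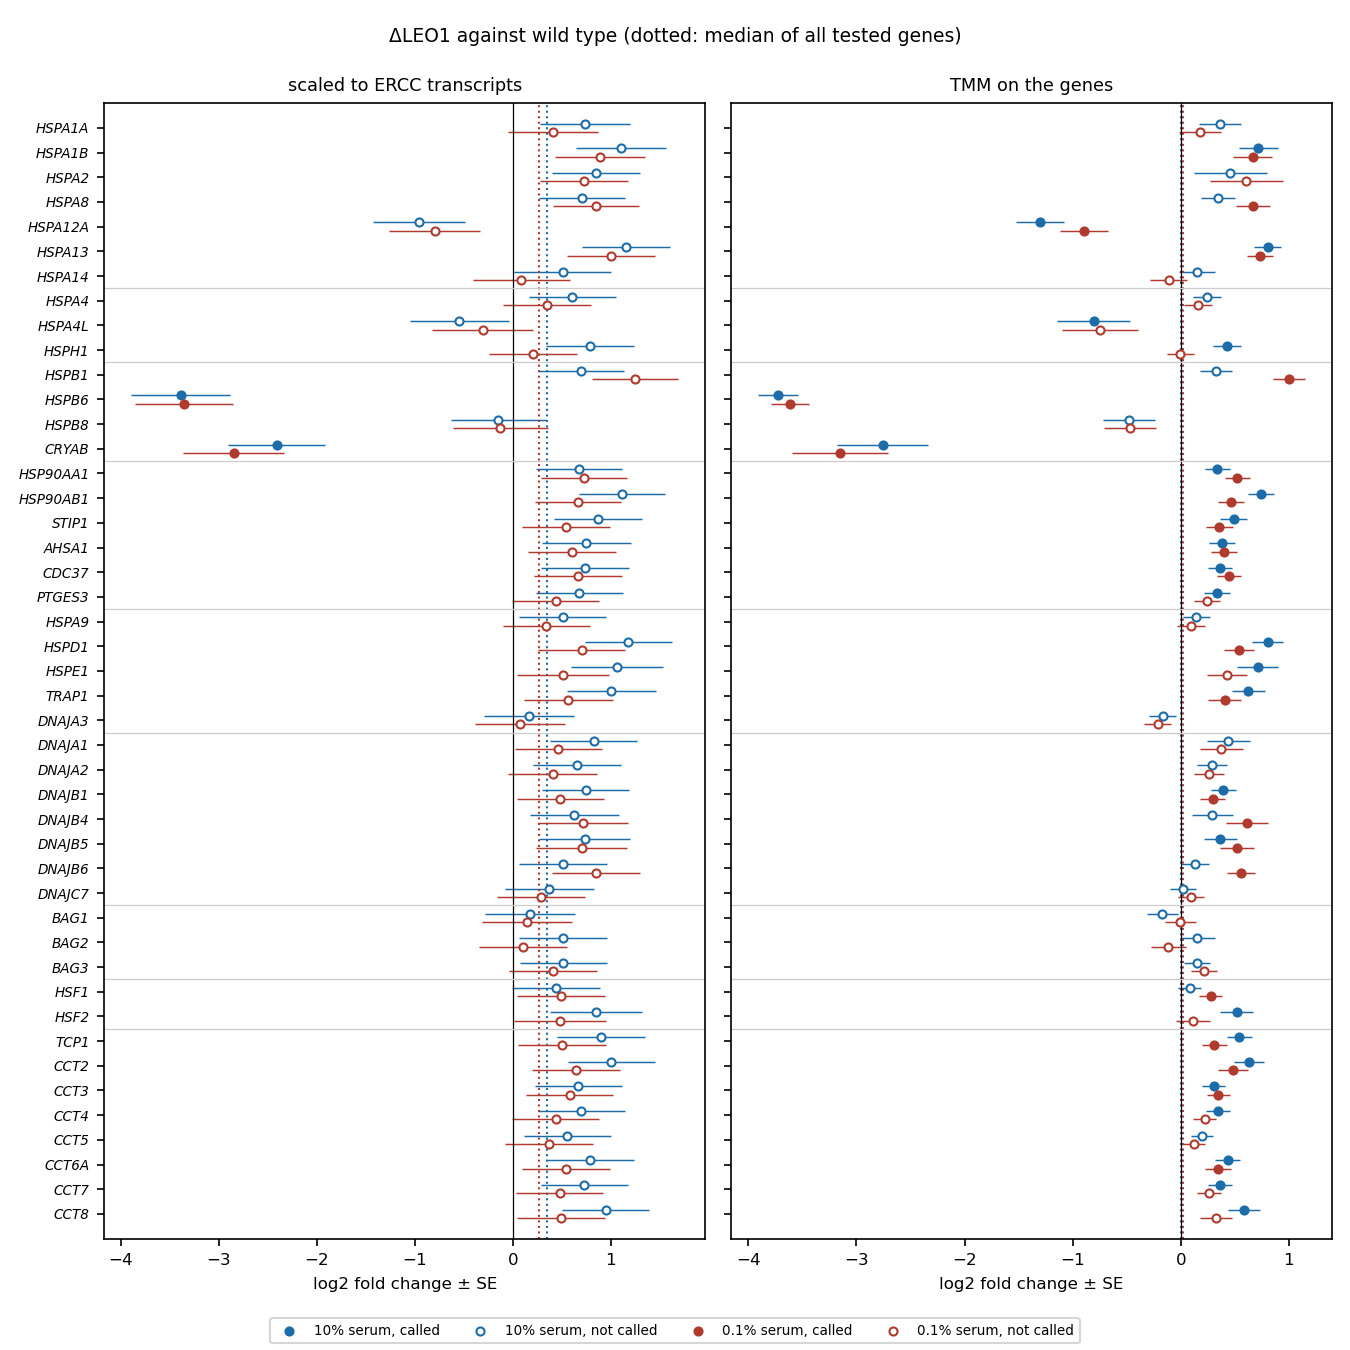
Log2 fold change of ΔLEO1 against wild type, with SE, for the 45 tested members in class order, in 10% serum (blue) and 0.1% serum (red), scaled to ERCC transcripts (left) and by TMM on the genes (right). Filled points were called and dotted lines give the median of all tested genes. HSPB6 and CRYAB lie at -2.41 or lower in all 4 columns of points, and most of the other members lie to the right of the dotted lines.

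As a share of all gene counts, the 46 members took 0.601%, 0.612% and 0.658% in wild type in 10% serum and 0.586%, 0.601% and 0.548% in 0.1% serum. In ΔLEO1 they took 0.830%, 0.847% and 0.811% in 10% serum and 0.800%, 0.794% and 0.703% in 0.1% serum, so every ΔLEO1 library lay above every wild-type library in share. HSP90 and its cochaperones held the most, 0.182% to 0.190% in wild type and 0.260% to 0.281% in ΔLEO1 in 10% serum. Of the members' counts in wild type in 10% serum, HSPA8, HSP90AB1, HSP90AA1 and HSPB1 held 15.2%, 12.2%, 9.78% and 8.28% on average. Summed on the ERCC scale, the members held 758, 643 and 457 in wild type and 1313, 987 and 855 in ΔLEO1 in 10% serum. In 0.1% serum these sums overlapped, at 275, 363 and 204 in wild type and 422, 238 and 637 in ΔLEO1. Epithelial markers moved with the genotype as well, with 6 genes summing to 318 to 462 CPM in wild type and 841 to 1141 in ΔLEO1 in 10% serum and 165 to 180 and 509 to 585 in 0.1% serum. KRT18 made up most of this, and KRT8 ran the other way, at 53.5 to 63.0 CPM in wild type and 23.1 to 27.0 in ΔLEO1 in 10% serum and 67.9 to 79.7 and 25.1 to 39.7 in 0.1% serum. CDH1, though low, also moved with the genotype, at 0.219 to 0.332 CPM in wild type and 0.839 to 1.42 in ΔLEO1 in 10% serum. In 0.1% serum CDH1 lay at 0 to 0.0597 CPM in wild type and 0.259 to 0.553 in ΔLEO1. EPCAM, KRT5 and KRT14 lay between 0 and 0.229 CPM, and the part of these markers in the members' values was not tested.

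**Figure D3:**
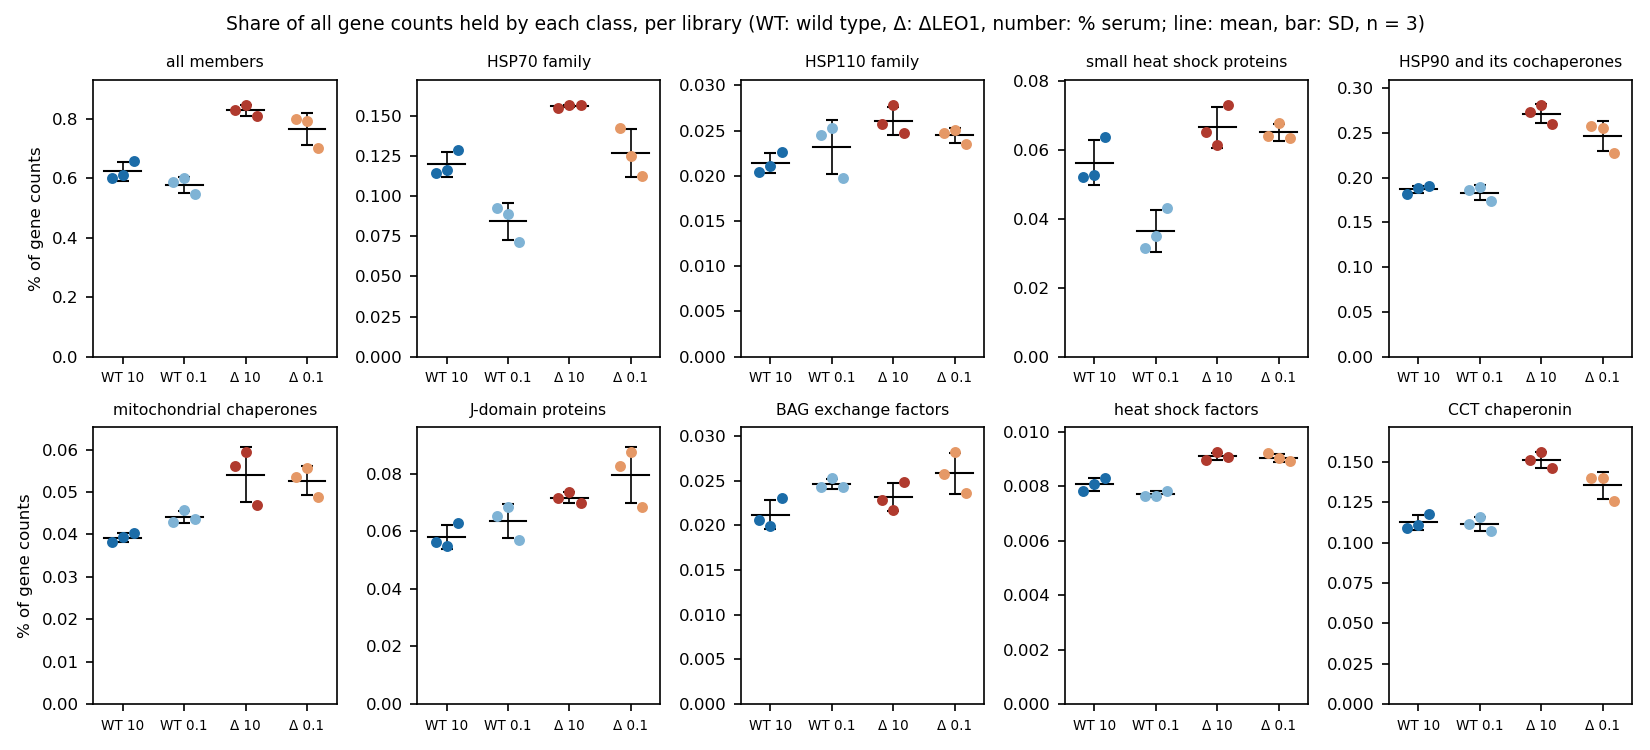
Share of all gene counts held by the 46 members and by each of their 9 classes in the 12 libraries (points), with mean (line) and SD (bar, n = 3), on linear axes from 0. For all members the ΔLEO1 libraries lie between 0.703% and 0.847% and the wild-type libraries between 0.548% and 0.658%.

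Serum withdrawal lowered 17 of 45 members in wild type on the ERCC scale, where 36.1% of all tested genes were called lower. The 17 were 37.8% of the members, near the share of all genes, and are not read as a trait of the set. The log2 fold change was negative for all 45 members and for 95% of all genes, with medians of -1.03 and -0.97. No member was called higher (0 of 45, 0.944% of all genes), none at an unadjusted p under 0.05 (1.22%), and none by the quasi-likelihood test (0.831% of all genes) or DESeq2 (0.854%). Of the 17, 3 each were small heat shock proteins (CRYAB, HSPB1 and HSPB8), HSP90 genes (HSP90AA1, STIP1 and CDC37), J-domain proteins (DNAJB4, DNAJB5 and DNAJB6) and CCT subunits (CCT3, CCT5 and CCT8), and the others were HSPA2, HSPA8, HSPA4L, TRAP1 and HSF1. The count depended on single libraries, and the share of all genes called lower moved with it. Of 45 members, 7 were lower without library 1, 2 or 7 (8.94%, 13.3% and 8.64% of all genes) and 6 without library 9 (9.8%), while 33, 34 and 35 were lower without libraries 3, 11 and 12 (57.0%, 59.3% and 65.3%).

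The members that fell furthest in wild type were HSPA2, CRYAB, DNAJB4, HSPA4L, HSPB1 and DNAJB6. HSPA2 held 10.7, 9.17 and 11.5 in wild type in 10% serum and 1.73, 2.41 and 1.33 in 0.1% serum. In ΔLEO1 HSPA2 held 18.1, 12.6 and 25.7 in 10% serum and 3.11, 1.97 and 3.98 in 0.1% serum, with no overlap between the sera in either genotype and a log2 fold change of -2.52 ± 0.45 (adjusted p = 5.88e-06) in wild type. DNAJB4 fell by 2.16 ± 0.45 (adjusted p = 1.48e-04), HSPA4L by 2.13 ± 0.51 (adjusted p = 0.00102), HSPB1 by 1.72 ± 0.44 (adjusted p = 0.00200) and DNAJB6 by 1.70 ± 0.45 (adjusted p = 0.00303) on the log2 scale. HSPA8 fell by 1.57 ± 0.44 (adjusted p = 0.00490). These genes also fell in share, with TMM log2 fold changes of -1.67 ± 0.34 (adjusted p = 1.72e-05) for HSPA2, -1.20 ± 0.19 (adjusted p = 1.81e-08) for DNAJB4, -0.99 ± 0.34 (adjusted p = 0.0153) for HSPA4L, -0.75 ± 0.13 (adjusted p = 1.04e-07) for DNAJB6 and -0.64 ± 0.16 (adjusted p = 5.34e-04) for HSPA8.

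With TMM on the genes, 9 members were lower and 5 higher in wild type in 0.1% serum, where 16.6% and 16.0% of all genes were called in these directions. The 9 were HSPA2, CRYAB, DNAJB4, HSPA4L, HSPB1, DNAJB6, HSPA8, DNAJB5 and CDC37, and the 5 were BAG1 at 0.67 ± 0.14 (adjusted p = 3.28e-05), HSPB6 at 0.52 ± 0.14 (adjusted p = 0.00179), DNAJA1 at 0.50 ± 0.20 (adjusted p = 0.0393), HSPH1 at 0.41 ± 0.13 (adjusted p = 0.00720) and DNAJB1 at 0.33 ± 0.12 (adjusted p = 0.0172). The DNAJA1 call was lost with the quasi-likelihood test on the same scale. On the ERCC scale the same 5 had negative values, from -0.63 to -0.29, none of them called, so the direction of these 5 differs between the scales. The 6 members with a 3-unit heat shock element, printed above, lay on both sides, HSPA8 and DNAJB6 lower in share, DNAJA1 higher, and HSP90AA1, HSP90AB1 and HSPD1 not called at -0.26 ± 0.12 (adjusted p = 0.0707), 0.00 ± 0.12 (adjusted p = 0.994) and 0.02 ± 0.14 (adjusted p = 0.925).

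Serum withdrawal in ΔLEO1 lowered 36 of 45 members on the ERCC scale, where 47.2% of all genes were called lower, with medians of -1.27 and -1.05. No member was called higher (0 of 45, 0.975% of all genes), none at an unadjusted p under 0.05 (1.16%), and none by the quasi-likelihood test (0.793% of all genes) or DESeq2 (0.771%). All 8 CCT subunits and all 6 genes of the HSP90 class were called, and the 9 that were not were HSPA1A, HSPA12A, HSPA9, HSPB6, DNAJA1, DNAJA2, DNAJB1, BAG1 and BAG3. The count was 3 without library 10 (4.86% of all genes), 4 without library 4 (5.98%), 6 without library 11 (8.3%) and 20 without library 5 (22.7%). The largest falls were those of CRYAB, given above, HSPA2 (-2.64 ± 0.45, adjusted p = 2.92e-06), DNAJB4 (-2.07 ± 0.45, adjusted p = 4.25e-04), HSPA4L (-1.89 ± 0.52, adjusted p = 0.00550), TRAP1 (-1.62 ± 0.45, adjusted p = 0.00654) and CCT8 (-1.57 ± 0.45, adjusted p = 0.00729) as log2 fold changes.

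In share, 10 members were lower and 3 higher in ΔLEO1 in 0.1% serum, where 12.9% and 16.5% of all genes were called with TMM on the genes. The lower ones were HSPA2, CRYAB, HSPA4L, DNAJB4, DNAJB6, HSF2, STIP1, TRAP1, CCT5 and CCT8, with log2 fold changes from -1.72 for CRYAB to -0.28 for CCT5. The higher ones were HSPA12A at 0.92 ± 0.22 (adjusted p = 3.92e-04), BAG1 at 0.84 ± 0.14 (adjusted p = 1.09e-07) and HSPB6 at 0.63 ± 0.21 (adjusted p = 0.0138). BAG1, which also binds BCL2, and HSPB6 were thus higher in share in both genotypes.

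**Figure D4:**
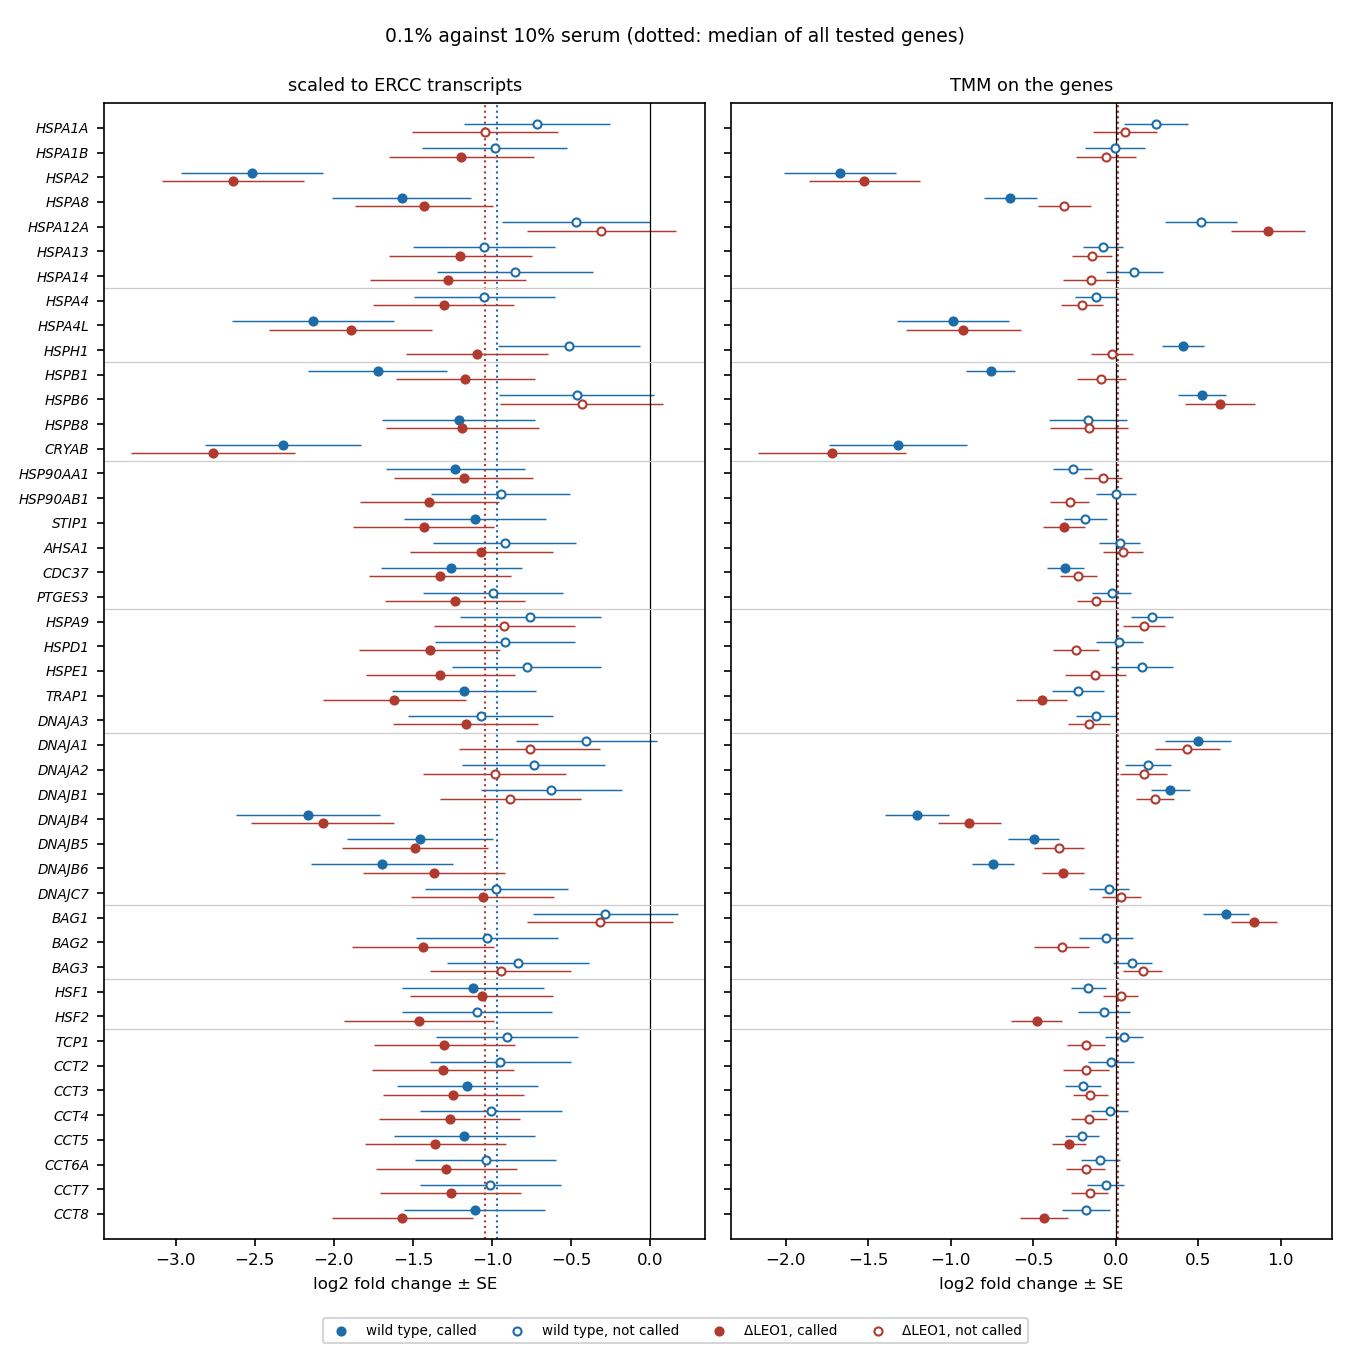
Log2 fold change of 0.1% against 10% serum, with SE, for the 45 tested members in class order, in wild type (blue) and ΔLEO1 (red), scaled to ERCC transcripts (left) and by TMM on the genes (right). Filled points were called and dotted lines give the median of all tested genes. On the left all points lie below 0, around medians of -0.97 and -1.05, and on the right HSPA2 and CRYAB lie furthest to the left in both genotypes.

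Whether serum withdrawal acted differently in the genotypes was tested by the interaction. No member was called on the ERCC scale (0 of 45 lower, 0.0831% of all genes, and 0 of 45 higher, 0.136% of all genes). At an unadjusted p under 0.05 no member was higher, where 1.66% of all genes were. The quasi-likelihood test (0.0604% and 0.113% of all genes) and DESeq2 (0.068% and 0.0604%) also called 0 members in each direction. With TMM on the genes HSPB1 was called, with a difference of the log2 fold changes of 0.67 ± 0.21 (adjusted p = 0.0380), among 3.06% of all genes called higher, and 0 members were called lower, against 1.02% of all genes. HSPB6 and CRYAB had interaction terms of 0.03 ± 0.71 (adjusted p = 1.000) and -0.44 ± 0.71 (adjusted p = 1.000) on the ERCC scale, so a difference in serum response was not detectable for either at this spread.

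Counts of members whose groups did not overlap, out of 45, also depended on the scale. With serum withdrawal in wild type, 35 lay lower without overlap on the ERCC scale (53.4% of all genes) and 0 higher (1.16%), and in CPM 12 lay lower (18.6%) and 10 higher (31.5%). In ΔLEO1 these were 40 lower (50.9%) and 0 higher (0.846%) on the ERCC scale, and 13 lower (15.8%) and 5 higher (27.3%) in CPM. Between the genotypes in 10% serum, HSPB6 and CRYAB lay lower without overlap on the ERCC scale (6.94% of all genes), and in CPM 7 lay lower (29.6%) and 29 higher (29.8%). In 0.1% serum, HSPB6 and CRYAB lay lower (4.83%) and HSPB1 and HSPA1B higher (4.64%) on the ERCC scale, and in CPM 3 lay lower (21.8%) and 25 higher (19.7%).

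Other genes of the folding machinery were taken as lists, and named only where called on both scales in the same direction. In wild type, where 36.1% of all genes were called lower, serum withdrawal lowered 7 of 16 tested genes of the remaining HSP70 system, 4 of 12 of the HSP90 system, 4 of 14 of prefoldin and tubulin folding, 8 of 14 of mitochondrial folding and proteolysis, 3 of 9 HSF1 regulators and heat-induced genes and 4 of 5 genes of BAG3-assisted autophagy on the ERCC scale. In ΔLEO1, where 47.2% of all genes were called lower, these counts were 12, 7, 12, 12, 5 and 5. HSPB3, a small heat shock protein and the single one tested beyond the members, fell in wild type, with a log2 fold change of -3.54 on the ERCC scale and -2.64 with TMM, and in ΔLEO1, with -2.51 (adjusted p = 7.82e-05) and -1.52 (adjusted p = 9.15e-04). Between the genotypes SYNPO2, an actin-bundling partner of BAG3, was higher in ΔLEO1 in both sera, with log2 fold changes of 1.35 ± 0.44 (adjusted p = 0.0296) and 1.68 ± 0.44 (adjusted p = 0.00384) on the ERCC scale. HSPA12B was called lower. It had 21, 42 and 21 counts in wild type and 0, 0 and 1 in ΔLEO1 in 10% serum. In 0.1% serum it had 52, 40 and 86 against 0, 1 and 0. HSPA12B passed the count filter through wild-type libraries alone, so its call is not independent of the filter and only its counts are given. No other gene of these lists was called between the genotypes on the ERCC scale.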

How the data were processed

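Poly(A) RNA of the 12 libraries was sequenced by the authors, who deposited raw counts per gene and, in a separate table, per ERCC transcript. The submitters' processing notes name bcl2fastq 2.20.0.422, STAR 2.7.10a and featureCounts 1.5.1. Strand and multi-mapping settings and the RNA input per library are not given in the sources used here. Groups came from the sample labels.

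Genes above 1 CPM in at least 3 libraries were kept. All 12 libraries were fitted together in edgeR 4.0.16 (R 4.3.3, limma 3.58.1) by a two-sided likelihood ratio test, with ERCC totals, TMM-adjusted, as library sizes and Benjamini-Hochberg adjustment over 13236 genes. ERCC scaling assumes the same ERCC amount for each amount of sample. The effective ERCC count of a library is its ERCC total times its ERCC TMM factor, and each value has no interval of its own beyond the spread of 3 libraries. The steps were tested on simulated data. Python 3.11.15, pandas 2.3.3 and matplotlib 3.10.9 were used for summaries and plots.

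Alternatives were scaling by TMM over the genes, scaling by DESeq2 size factors over the genes, plain ERCC totals, the quasi-likelihood test, DESeq2 1.42.0, no filter or edgeR's own filter, the 6 libraries of a comparison alone, a threshold of 0.01, leaving out each library, and leaving out, or fitting as a covariate, the highest-numbered library of each group. TMM with the quasi-likelihood test, and TMM without the highest-numbered libraries, were added after seeing the data.

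The members, gene lists and marker lists were chosen with earlier results of these data known. Values by library are given for the best-known members of each class and for up to 6 called members per comparison with the largest log2 fold change relative to the median of all genes. Other genes were named where called on both scales in the same direction. No set test was run.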

Additional observations from a re-analysis of the deposited data

Results flagged for a closer look

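The response of HSPB1, the actin-capping small heat shock protein, to serum withdrawal differed between the genotypes in a test of the difference itself, the interaction term with TMM on the genes (edgeR likelihood ratio test). The difference of the log2 fold changes, ΔLEO1 minus wild type, was 0.67 (adjusted p = 0.0380). HSPB1 was the 1 member of 45 called, where 3.06% of all genes were called higher and 1.02% lower. The difference was not called with the quasi-likelihood test on the same scale, nor on the ERCC scale, where it was 0.55 ± 0.62 (SE). Without libraries 3, 6, 9 and 12 it was 0.11 on the ERCC scale, not called, and 0.83 with TMM on the genes, called. That TMM fit called 27.5% of all genes, and 6 of 45 members higher and 4 lower. In CPM the libraries of the 2 sera did not overlap in wild type and overlapped in ΔLEO1, and the cause was not tested.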

How the results depend on the processing

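No paired analysis was possible because the libraries are numbered 1 to 12 over the series and no 2 groups share a number. The calls of HSPB6 and CRYAB between the genotypes stood under leaving out any 1 library, while the other member counts moved with scaling and with single libraries. The share or number of all tested genes called in the same direction stands in brackets. For serum withdrawal in wild type, 17 members were lower (36.1%). The count was 7 at a threshold of 0.01 (12.4%), 11 by the quasi-likelihood test (27%) and 31 by DESeq2 (43.5%). It was 9 with TMM (16.6%) or DESeq2 size factors on the genes (16.4%) and 9 with no filter (10.5%). It was 36 with the 6 libraries alone (66.1%) and 38 without the highest-numbered libraries (72.4%). With TMM and the quasi-likelihood test it was 9 (16.1%), and without 1 library it ran from 6 (9.8%) to 35 (65.3%). The count of higher members, 0 (0.944%), became 5 with TMM (16.0%) or DESeq2 size factors (2139 of 13236 genes). It became 4 with TMM and the quasi-likelihood test (2047 of 13236) and 11 with TMM without the highest-numbered libraries (3609 of 12911). In ΔLEO1, 36 were lower (47.2%), against 45 without the highest-numbered libraries (93.1%), 39 by DESeq2 (52.6%) and 31 by the quasi-likelihood test (36.4%). The count was 29 with the highest-numbered library as a covariate (32.2%), 25 with no filter (13.3%) and 6 at 0.01 (9.61%). It was 10 with TMM (12.9%), 9 with DESeq2 size factors (12.9%) and 10 with the 6 libraries alone (13.2%). With TMM and the quasi-likelihood test it was 9 (12.1%), and 18 with TMM without the highest-numbered libraries (28.4%). Without 1 library it ran from 3 (4.86%) to 42 (88.4%). The higher count, 0 (0.975%), became 3 with TMM (16.5%), with size factors (2190 of 13236) and with TMM and the quasi-likelihood test (2055 of 13236). It became 8 with TMM without the highest-numbered libraries (3768 of 12911). Between the genotypes in 10% serum, 2 lower (4.64%) became 4 with TMM (21.8%) or size factors (21.3%) and 5 with TMM without the highest-numbered libraries (32.6%). The higher count, 0 (4.2%), became 1 by DESeq2 (4.38%). It was 22 with TMM (17.7%), size factors (2418 of 13236) or TMM and the quasi-likelihood test (2371 of 13236). With the 6 libraries alone it was 8 (959 of 12656). It was 6 without the highest-numbered libraries (867 of 12911) and 34 with TMM without them (3998 of 12911). Without 1 library it ran from 0 to 7, the 7 being without library 12 (1068 of 13174). In 0.1% serum, 2 lower (3.59%) became 4 without the highest-numbered libraries (15.9%) and 5 with TMM without them (29.8%). The higher count, 0 (3.85%), became 1 by DESeq2 (3.69%) and 20 with TMM (15.4%). It was 21 with size factors (2067 of 13236) or TMM and the quasi-likelihood test (2004 of 13236). With TMM without the highest-numbered libraries it was 32 (4015 of 12911). Without 1 library it ran from 0 to 5, the 5 being without library 11 (1310 of 13172). For the interaction, 0 lower (0.0831%) became 4 with TMM without the highest-numbered libraries (9.99%). The higher count, 0 (0.136%), became 1 with TMM (3.06%) or size factors (393 of 13236). It became 6 with TMM without the highest-numbered libraries (2256 of 12911).

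In CPM instead of ERCC-scaled values, members without overlap in wild type went from 35 (53.4% of all genes) to 12 (18.6%) lower with serum withdrawal. Higher ones went from 0 (1.16%) to 10 (31.5%). In ΔLEO1 they went from 40 (50.9%) to 13 (15.8%) lower and from 0 (0.846%) to 5 (27.3%) higher. Between the genotypes they went from 2 (6.94%) to 7 (29.6%) lower in 10% serum and from 2 (4.64%) to 25 (19.7%) higher in 0.1% serum.

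Some members, negative on the ERCC scale, turned positive on the gene scales, with a call on one of the scales. Values are log2 fold changes with TMM, with size factors, with TMM and the quasi-likelihood test, and with TMM without the highest-numbered libraries. With serum withdrawal in wild type these were BAG1 (0.67, 0.67, 0.67 and 0.72), DNAJB1 (0.33, 0.33, 0.33 and 0.37), HSPB6 (0.52, 0.53, 0.52 and 0.42), HSPH1 (0.41, 0.41, 0.41 and 0.59) and, without a call by the third, DNAJA1 (0.50, 0.50 and 0.75). In the last fit alone they were BAG3 at 0.22, DNAJA2 at 0.33, HSPA12A at 0.52, HSPA1A at 0.25, HSPA9 at 0.17 and HSPE1 at 0.24. In ΔLEO1 they were BAG1 (0.84, 0.84, 0.84 and 0.92), HSPA12A (0.92, 0.92, 0.92 and 0.99), HSPB6 (0.63, 0.63, 0.63 and 0.63), AHSA1 (0.0443, 0.043, 0.0444 and 0.16), DNAJC7 (0.0338, 0.0323, 0.0339 and 0.14) and HSF1 (0.0289, 0.0275, 0.029 and 0.11). In the last fit alone they were BAG3 at 0.27, DNAJA1 at 0.59, DNAJA2 at 0.31, DNAJB1 at 0.33, HSPA1A at 0.30, HSPA1B at 0.0794, HSPB1 at 0.0436 and HSPE1 at 0.0853. Between the genotypes in 0.1% serum DNAJA3 became -0.37 in that fit. The interaction of HSPA2 became 0.40 in that fit. By construction TMM on the genes moves the median of all genes from -0.97 to 0.00 for serum withdrawal in wild type, from -1.05 to 0.01 in ΔLEO1, and from 0.35 to 0.00 and from 0.27 to 0.02 between the genotypes; other causes were not tested. Among the 45 members' values outside the fits that left out 1 library, 2146 kept direction and call, 305 gained a call, 218 lost it, 152 changed sign without a call on either side and 59 reversed with one. The spread of the ERCC counts limits the ERCC-scaled tests, where the members' SE over all 12 libraries was 0.44 or more.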

Other observations

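HSPA2, an HSP70 first known from testis, had 1 library apart from the other 2 of its group in CPM in 10% serum. It held 84.7, 87.2 and 166 CPM in wild type in 10% serum and 114, 108 and 244 CPM in ΔLEO1 in 10% serum, the highest value being that of library 3 and of library 6. In 0.1% serum it held 36.9, 39.9 and 35.7 CPM in wild type and 59.1, 65.8 and 43.9 CPM in ΔLEO1, where libraries 9 and 12 were the lowest of their groups. Libraries 3, 6, 9 and 12 stood apart from the others of their groups over all genes, and their part in the HSPA2 values was not tested. On the ERCC scale the mean was 10.5 ± 1.19 (SD, n = 3) in wild type and 18.8 ± 6.57 in ΔLEO1 in 10% serum, and 1.82 ± 0.545 and 3.02 ± 1.01 in 0.1% serum, so the spread relative to the mean was not greater in 10% serum in wild type.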
